A study of Homo sapiens with 4 samples.

Results

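The genes described here are the IGF binding proteins IGFBP1 to IGFBP7 and the ligands IGF1 and IGF2, which together make 9 of the 20242 promoters measured. They were taken by gene symbol, and each symbol was found once. The family was chosen by a measured value, the H3K27me3 ratio of IGFBP7 between +Dox and −Dox cells, which was the lowest of any strongly marked bivalent promoter, so H3K27me3 ratios are given as a description and carry no test. The data are 4 ChIP-seq libraries made with JMJD3c-hESCs, which derive from SEES-3, a line of human embryonic stem cells. All cells carried the reverse Tet-transactivator and a piggyBac construct in which doxycycline (Dox) switches on the HA-tagged catalytic region of the H3K27 demethylase JMJD3. Whether the cells were 1 stable clone or several is not given in the sources used here. Untreated cells (−Dox) were compared with cells given Dox at 1 µg/ml for 3 days (+Dox). H3K27me3 and H3K4me3 were each measured in 1 library per condition, so no difference below has a replicate check.

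Insulin-like growth factors are secreted hormones that signal through a receptor tyrosine kinase to promote growth and survival. IGFBPs are secreted carriers that hold the ligands away from the receptor or deliver them to tissues, and proteases release the ligands from them. In embryonic stem cells, H3K27me3 is laid down by Polycomb proteins and marks repressed promoters, H3K4me3 marks active or poised promoters, and promoters with both marks are called bivalent.

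Each value is the coverage summed from 3 kb before to 3 kb after the start, which the authors scaled to library reads. All windows have the same length, so levels of a mark can be set side by side between genes of 1 library. No input library was used here, and values include background. Because of this scaling a genome-wide loss would not be visible. Intervals are 95% intervals from the approximate number of reads and cover counting error only. Those of values are exact Poisson intervals. Those of ratios are exact (Clopper-Pearson, on the share of reads from +Dox cells) and compare 2 libraries, not 2 conditions. The smallest step between values gave scaling totals of about 2629351 (H3K27me3) and 3509244 (H3K4me3) reads in −Dox cells. Both +Dox libraries had the same step and so the same total, 2682085 reads, although their values differ, and whether 1 of them was scaled with the total of the other was not tested. The reads per promoter do not rest on these totals, but the +Dox/−Dox ratios of a mark do, whereas ratios with both libraries set to an equal sum over promoters do not, and the H3K27me3 ratio of IGFBP7 was 0.0728 on that scale. A typical promoter had about 5 reads of H3K27me3 in either condition and about 43 (−Dox) and 31 (+Dox) of H3K4me3. As a check of the cell type, H3K4me3 exceeded 20 at 9 of 10 pluripotency genes in −Dox cells (63.7% of all promoters). H3K27me3 exceeded 20 at none of the 10 (11.0% of all promoters). The exception for H3K4me3 was POU5F1, measured at a start 10049 bp away from the canonical start. Of the 9 that exceeded 20, TDGF1 and NANOG were also measured away from the canonical start, by 3362 and 1608 bp, and PODXL had no position. In +Dox cells the H3K4me3 count was also 9 of 10, so this check does not separate the conditions.

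The promoters of the family differ widely in their CG dinucleotides, and 4 of them are shown because they span the range from a bivalent to an unmarked promoter. Each sequence holds the 250 bases before a RefSeq start, 5′ to 3′ on the strand of the gene, with each CG in capitals. Of the 9 genes, 6 had an entry in the RefSeq promoter table (all but IGFBP1, IGFBP7 and IGF2). The positions are exact matches in GRCh37, the assembly behind hg19. IGFBP3, a bivalent promoter, lies at chr7:45960872-45961121 on the minus strand and has 32 CG. IGFBP4, with H3K4me3 only, lies at chr17:38599452-38599701 on the plus strand and has 24. IGFBP5, also with H3K4me3 only, lies at chr2:217560273-217560522 on the minus strand and has 8. For IGF1, unmarked at the deposited start, the printed stretch lies at chr12:102875526-102875775 on the minus strand, 1184 bp upstream of that start, and has 0. Another IGF1 entry, 2013 bp from the deposited start, has 1 and is not printed.
IGFBP3: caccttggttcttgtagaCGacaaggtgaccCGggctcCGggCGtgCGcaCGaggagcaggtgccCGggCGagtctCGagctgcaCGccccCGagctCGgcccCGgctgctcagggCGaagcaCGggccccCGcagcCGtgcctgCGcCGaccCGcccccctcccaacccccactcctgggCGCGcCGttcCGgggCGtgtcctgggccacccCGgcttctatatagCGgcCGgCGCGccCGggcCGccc
IGFBP4: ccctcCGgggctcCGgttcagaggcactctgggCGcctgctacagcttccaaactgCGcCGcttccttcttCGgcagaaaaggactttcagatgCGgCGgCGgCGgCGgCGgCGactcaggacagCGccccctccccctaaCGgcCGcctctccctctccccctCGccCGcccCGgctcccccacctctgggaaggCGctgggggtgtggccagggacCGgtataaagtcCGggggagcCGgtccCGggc
IGFBP5: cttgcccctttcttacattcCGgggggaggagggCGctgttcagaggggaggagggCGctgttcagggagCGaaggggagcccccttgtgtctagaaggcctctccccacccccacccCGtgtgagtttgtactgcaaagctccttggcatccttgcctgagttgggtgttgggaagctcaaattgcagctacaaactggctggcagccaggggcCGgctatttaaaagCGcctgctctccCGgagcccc
IGF1: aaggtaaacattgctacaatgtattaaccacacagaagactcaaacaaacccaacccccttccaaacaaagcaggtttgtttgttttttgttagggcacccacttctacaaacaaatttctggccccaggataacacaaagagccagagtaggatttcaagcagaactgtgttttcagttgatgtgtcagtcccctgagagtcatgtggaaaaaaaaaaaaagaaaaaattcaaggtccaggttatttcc

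Over the 35116 promoters of the table the median was 11 CG in these 250 bases. IGFBP3 had more than 90.5% of them and IGFBP4 more than 76.3%, whereas 43.7% of promoters had fewer than IGFBP5 and none had fewer than IGF1. The GC box GGGCGG, searched on both strands, was present in the printed stretches of IGFBP3 (2 matches) and IGFBP4 (1 match) and in 42.6% of all promoters of the table. The TATA box TATAAA was matched in IGFBP4 only among these 4, and in 10.7% of all promoters. IGFBP6, whose RefSeq start lies 231 bp from the deposited one, had 9 CG before that start. IGFBP2, also not printed, had 22 CG before the deposited start and 7 and 4 in its other entries.

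The family held promoters of every class before induction. With a mark called present above a value of 20, IGFBP3, IGFBP6 and IGFBP7 were bivalent, as were 9.42% of all promoters. IGFBP1 carried H3K27me3 only (1.58% of all promoters). IGFBP2, IGFBP4 and IGFBP5 carried H3K4me3 only (54.2%), and both ligands were unmarked (34.8%). H3K27me3 therefore exceeded 20 at 4 of the 9 promoters, against 11.0% of all promoters, and H3K4me3 at 6 of the 9, against 63.7%. The −Dox counting interval included 20 for H3K4me3 at IGFBP1 (8.69 to 24.7) and IGF2 (7.27 to 22.3). It also did for H3K27me3 at IGFBP5 (8.78 to 28.2), so the classes of these genes are not settled at this depth.

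**Figure D1:**
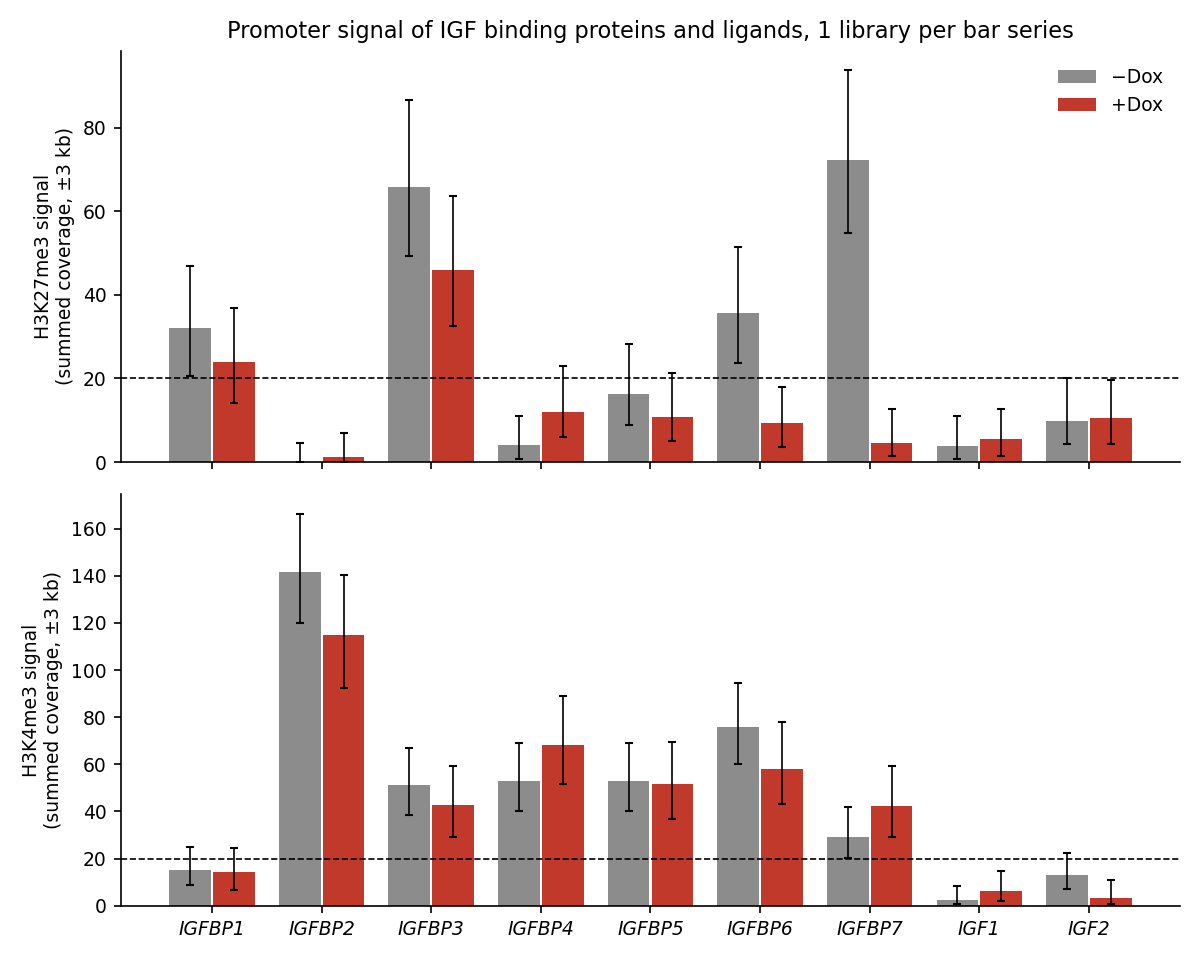
H3K27me3 (top) and H3K4me3 (bottom) signal, summed coverage within 3 kb of the start, at the 9 promoters in −Dox (grey) and +Dox (red) cells. Bars are single libraries, error bars are 95% Poisson counting intervals and the dashed line is the class threshold of 20; in +Dox cells H3K27me3 lay below that line at IGFBP6 and IGFBP7 and above it at IGFBP1 and IGFBP3.

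IGFBP7 encodes a secreted protein that binds IGFs more weakly than the other members and is also found in the extracellular matrix. Its start is the canonical one, and its window (ENSG00000163453, chromosome 4, 57973551 to 57979551, minus strand) holds exon 1 of 509 bp and part of intron 1. H3K27me3 was 72.3 (54.8 to 93.7) in −Dox and 4.47 (1.36 to 12.8) in +Dox cells, which is about 57 reads against 4, a ratio of 0.0619 (0.0182 to 0.186), or 0.123 with a pseudocount of 5. In −Dox cells 96.9% of all promoters had a lower H3K27me3 value, and in +Dox cells 29.3% had one, where the median promoter was at 5.97. The promoter thus went from among the most strongly marked to a value near the median of the library, which lay within its counting interval. In a bulk sample, fewer cells with the mark and less of it in each cell cannot be told apart.

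The choice rested on the 823 bivalent promoters whose H3K27me3 reached 50 or more in −Dox cells, of which IGFBP7 ranked 1. The next promoters were ZFHX4, from 75.7 to 5.59 with a ratio of 0.0739, and GABRB2, from 68.5 to 6.34 with a ratio of 0.0926. IGFBP3, the only other member in that ranking, stood at 435.

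H3K4me3 at IGFBP7, which the ranking did not use beyond the class, was 29.4 (20.02 to 41.8) in −Dox and 42.5 (29.3 to 59.2) in +Dox cells. The ratio was 1.45 with an interval of 0.857 to 2.42 that included 1, so a change was not detectable at this depth. IGFBP7 was classed as H3K4me3-only in +Dox cells, as were 39.1% of the promoters that had been bivalent.

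IGFBP6, a carrier with a preference for IGF2, was the other member whose H3K27me3 ratio lay below 0.5. Its H3K27me3 was 35.8 (23.6 to 51.3) in −Dox and 9.32 (3.50 to 18.0) in +Dox cells, which is about 28 reads against 7, a ratio of 0.261 (0.0905 to 0.575). H3K4me3 was 75.8 in −Dox and 58.2 in +Dox cells, giving a ratio of 0.767 (0.525 to 1.12). Like IGFBP7, it passed from bivalent to H3K4me3-only, but its H3K4me3 was on the lower side in +Dox cells and that of IGFBP7 on the higher side, with both intervals including 1. The deposited window (ENSG00000167779, chromosome 12, 53488220 to 53494220, plus strand) starts from a transcript 231 bp upstream of the canonical start.

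IGFBP3, the main carrier of IGFs in blood, where it forms a complex with a ligand and the acid-labile subunit IGFALS, stayed bivalent. H3K27me3 was 65.8 (49.3 to 86.5) without and 45.9 (32.4 to 63.5) with Dox, giving a ratio of 0.697 (0.446 to 1.09). H3K4me3 was 51.3 and 42.9, a ratio of 0.836 (0.521 to 1.29). Both intervals included 1. Of all bivalent promoters 51.0% stayed bivalent. IGFBP3 and IGFBP7 had similar H3K27me3 values in −Dox cells, with overlapping counting intervals, and in +Dox cells these intervals no longer overlapped. Since IGFBP7 was chosen for its low ratio, this is a description and not a test. The IGFBP3 window (ENSG00000146674, chromosome 7, 45957871 to 45963871, minus strand) holds its first 2 exons, the first of 141 bp.

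IGFBP1, a carrier made by liver and decidua under the control of insulin, is a neighbour of IGFBP3, with starts 32784 bp apart and transcribed towards it. Its window (ENSG00000146678, chromosome 7, 45925087 to 45931087, plus strand) was marked by H3K27me3 only, with 31.9 (20.5 to 46.8) in −Dox and 23.9 (14.2 to 36.9) in +Dox cells, giving a ratio of 0.747 (0.388 to 1.41). H3K4me3 was 15.1 and 14.2, a ratio of 0.938 (0.378 to 2.07). The class was the same in both conditions, as it was at 48.9% of H3K27me3-only promoters. The 2 neighbours thus had H3K27me3 ratios within each other's intervals, and both remained above 20.

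The H3K4me3-only members had few reads of H3K27me3. IGFBP2, a carrier that is abundant in embryonic and fetal tissue, had the highest H3K4me3 of the family, 142 (120 to 166) in −Dox and 115 (92.4 to 141) in +Dox cells, giving a ratio of 0.811 (0.617 to 1.06), above 98.2% and 95.2% of all promoters. Its H3K27me3 was 0 in −Dox cells, where 3 reads would have given a value of 3.81, and 1.12 in +Dox cells, which is about 1 read. It therefore has no H3K27me3 ratio, and a change was not detectable.

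IGFBP5, a carrier known from bone and muscle matrix, lies 62129 bp from IGFBP2 on chromosome 2 and is transcribed towards it. Its H3K27me3 was 16.4 (8.78 to 28.2) without Dox, above 86.8% of all promoters. With Dox it was 10.8 (5.12 to 21.3), giving a ratio of 0.661 (0.256 to 1.72). Its H3K4me3 was 53.0 and 51.5, a ratio of 0.971 (0.625 to 1.46). IGFBP4, a carrier that mostly inhibits IGF action and is cleaved by the protease PAPPA, had an H3K27me3 of 4.18 in −Dox and 11.9 in +Dox cells. That ratio of 2.85 (0.843 to 18.5) rests on about 3 reads against 10 and was the only one above 2 in the family, a threshold passed by 14.7% of all promoters, and with a pseudocount of 5 it was 1.84. The H3K4me3 of IGFBP4 was 53.0 and 68.2, a ratio of 1.29 (0.871 to 1.90). The windows of IGFBP2 (ENSG00000115457, chromosome 2, 217495143 to 217501143), IGFBP4 (ENSG00000141753, chromosome 17, 38596702 to 38602702) and IGFBP5 (ENSG00000115461, chromosome 2, 217557272 to 217563272) each hold exon 1 and part of intron 1 around the canonical start. All 3 stayed H3K4me3-only, as did 97.6% of such promoters.

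**Figure D2:**
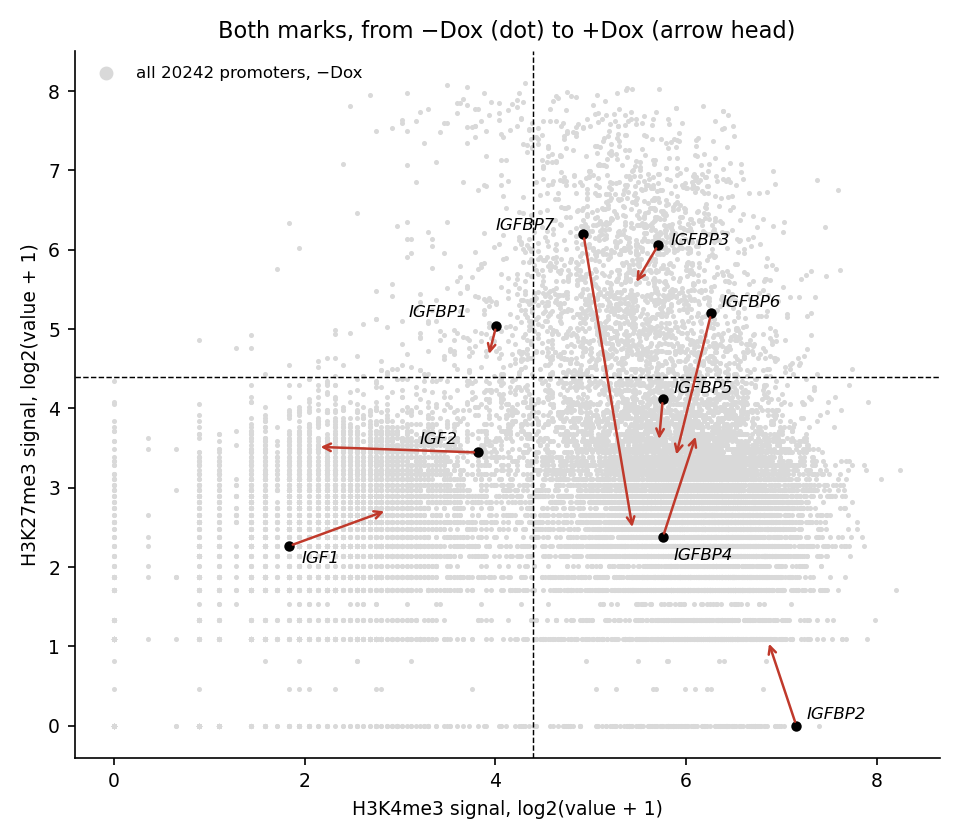
H3K4me3 (horizontal) and H3K27me3 (vertical) signal on a log2(value + 1) scale for all 20242 promoters in −Dox cells (light grey) and for the 9 family members, each drawn from its −Dox value (black dot) to its +Dox value (red arrow head). Dashed lines mark the class threshold of 20; the IGFBP7 and IGFBP6 arrows cross the H3K27me3 line, whereas those of IGFBP3 and IGFBP1 stay above it.

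The ligands carried little of either mark at the deposited starts. IGF1, the growth hormone-dependent ligand made mainly by liver (ENSG00000017427, chromosome 12, 102871341 to 102877341, minus strand), had H3K27me3 of 3.803 and 5.59 and H3K4me3 of 2.56 and 6.34 in −Dox and +Dox cells. IGF2, the imprinted fetal growth ligand (ENSG00000167244), had H3K27me3 of 9.89 and 10.4, or about 8 reads in each library. Its H3K4me3 was 13.1 in −Dox and 3.36 in +Dox cells, which is about 14 reads against 3, a ratio of 0.256 (0.0517 to 1.01). IGF2 was the only member with an H3K4me3 ratio below 0.5, as had 5.33% of all promoters, and IGF1, on about 3 reads against 5, the only one above 2, with a ratio of 2.47 (0.425 to 14.1), as had 6.09%. The IGF2 interval just included 1, and with a pseudocount of 5 the ratios were 0.461 at IGF2 and 1.499 at IGF1. IGF2 has several promoters, and the position of its deposited transcript was not assigned here, so the value describes 1 start whose place is not known. Both ligands stayed unmarked, as did 96.9% of unmarked promoters.

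Of the 8 family promoters with an H3K27me3 ratio, 5 had the lower value in +Dox cells, against 56.6% of all promoters, and the 5 were binding proteins. Ratios lay below 0.5 at 2 of the 8, IGFBP6 and IGFBP7, against 21.5% of all promoters and 40.8% of bivalent ones. The H3K27me3 interval lay below 1 for the same 2 promoters (7.05% of all and 48.5% of bivalent promoters) and included 1 for the other 6. The median log2 H3K27me3 ratio was −0.47 in the family, −0.14 over all promoters and −0.81 over bivalent promoters, and the 3 bivalent members stood at −0.52 (IGFBP3), −1.94 (IGFBP6) and −4.01 (IGFBP7). Since this contrast chose the genes, nothing is read from these shares.

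In order of their H3K27me3 ratios the binding proteins were IGFBP7, IGFBP6, IGFBP5, IGFBP3, IGFBP1 and IGFBP4. The interval of IGFBP7 overlapped with that of IGFBP6 and ended below those of the other 4. IGFBP7 was chosen for this low ratio, so its separation from the others is a description and not a test. The intervals of IGFBP5, IGFBP3, IGFBP1 and IGFBP4 overlapped with each other.

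For H3K4me3 no member had an interval that excluded 1, which 3.1% of all promoters did on the lower and 1.81% on the higher side. With low promoters set to a median ratio of 1, the intervals of IGFBP2 (upper bound 0.997) and IGF2 (upper bound 0.9499) lay below 1. In +Dox cells 6 of the 9 promoters had a lower value and 3 a higher one (IGFBP4, IGFBP7 and IGF1), against 52.6% lower among all promoters. The median log2 H3K4me3 ratio was −0.09 in the family and −0.02 over all promoters. The order of H3K4me3 levels in −Dox cells ran from IGFBP2 through IGFBP6, IGFBP4 and IGFBP5 (with the same value), IGFBP3, IGFBP7, IGFBP1 and IGF2 to IGF1. Counting intervals separated IGFBP2 from IGFBP6 in this order and overlapped for all other neighbours.

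**Figure D3:**
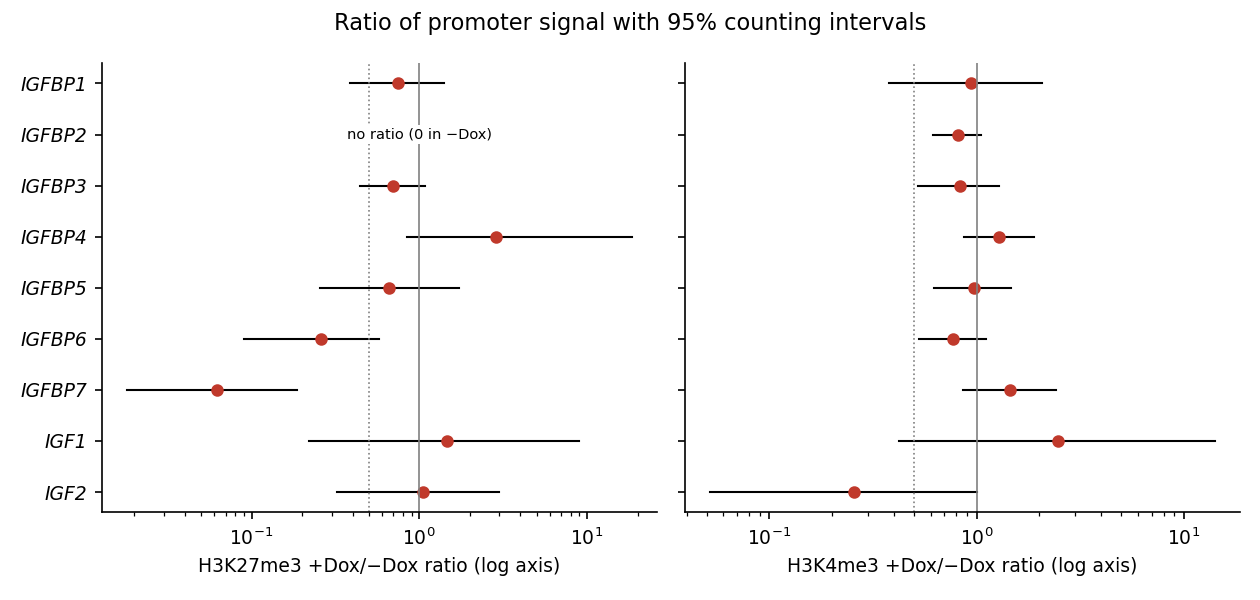
Ratio of +Dox to −Dox signal (log axes) at the 9 promoters for H3K27me3 (left) and H3K4me3 (right), as points with 95% counting intervals; the solid line is a ratio of 1 and the dotted line 0.5. IGFBP6 and IGFBP7 have H3K27me3 intervals below 1, and every H3K4me3 interval includes 1 with the values as deposited, that of IGF2 just barely (upper bound 1.01).

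The content of CG dinucleotides was set beside the classes, since it was not used in the choice of the genes. The windows of 6 kb held a median of 219 CG in bivalent, 180 in H3K4me3-only, 157 in H3K27me3-only and 79 in unmarked promoters. IGFBP3 (247), IGFBP2 (225), IGFBP4 (202) and IGFBP7 (195) lay above the median of 156 over all windows. IGFBP5 (161) lay close to it, and IGFBP1 (136), IGFBP6 (127) and IGF1 (41) lay below. The bivalent members that passed to H3K4me3-only, IGFBP7 and IGFBP6, had 195 and 127 CG, and the one that stayed bivalent, IGFBP3, had 247. With 3 promoters this is a description of single genes.

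**Figure D4:**
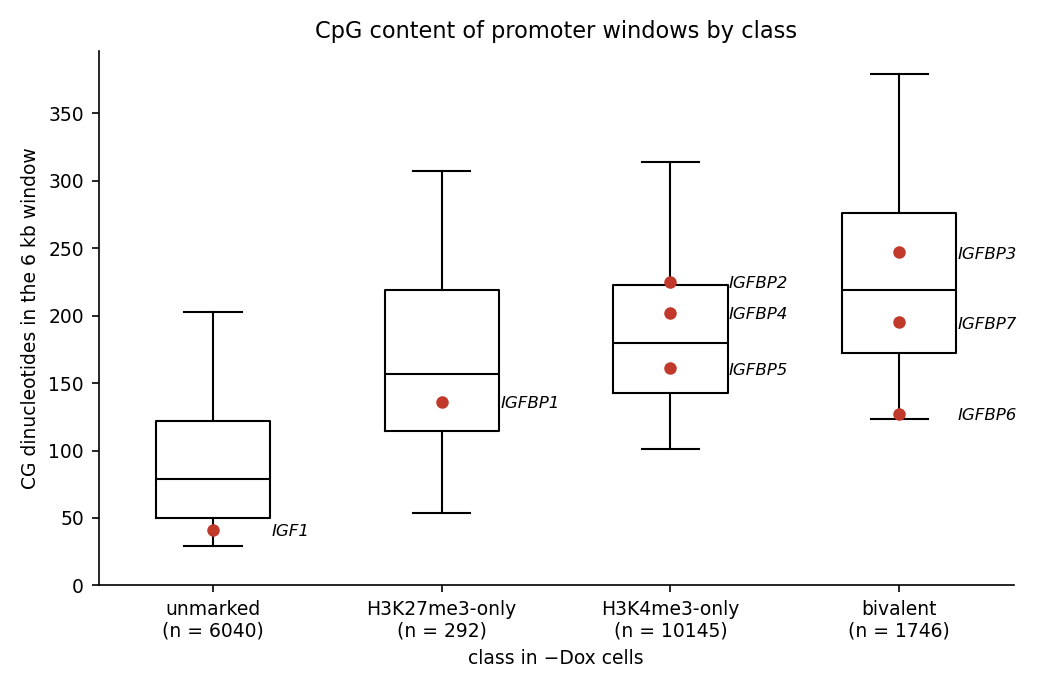
CG dinucleotides in the 6 kb window of each promoter with a position (GRCh37), by class in −Dox cells; boxes give the median and quartiles, whiskers the 5th and 95th percentiles, and red points the family members with a position. IGFBP7 and IGFBP6 lie below the bivalent median of 219 and IGFBP3 lies above it, while IGF1 lies below the unmarked median of 79.

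Promoters with starts within 100 kb were examined to see whether the changes extended to their neighbours. No other measured promoter with a position lay within this distance of IGFBP7 or IGF1. Around IGFBP6 there were 5, none with an overlapping window. H3K27me3 there exceeded 20 in −Dox cells at TENC1, with 23.6 in −Dox and 11.2 in +Dox cells, giving a ratio of 0.474 (0.185 to 1.08), and at ZNF740, with 20.2 and 9.32, a ratio of 0.462 (0.149 to 1.10). The other 3 had little H3K27me3, with 6.09 and 2.24 at SOAT2, whose start is 6050 bp from that of IGFBP6, 12.6 and 7.08 at SPRYD3, and 6.47 and 6.71 at EIF4B. EIF4B had H3K4me3 of 89.8 and 123, a ratio of 1.37 (1.03 to 1.85), and was the only neighbour of a member whose H3K4me3 interval excluded 1, but it included 1 with low promoters set to a median ratio of 1 (0.973 to 1.75). Around IGFBP4 there were 3, of which CTD-2267D19.3 was bivalent, with H3K27me3 of 32.3 in −Dox and 11.9 in +Dox cells, giving a ratio of 0.369 (0.168 to 0.847). Of the 5 neighbours of IGFBP6, 4 had a lower H3K27me3 value in +Dox cells and EIF4B a higher one, and all 5 intervals included 1. A lower value was also found at 56.6% of all promoters and at 87.6% of bivalent ones, the class of TENC1 and ZNF740. A change particular to this region is therefore not shown.

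The promoters most like IGFBP7 were sought by the Euclidean distance of log2(value + 1) over the 4 libraries. The nearest was PPP1R3D, a glycogen-targeting subunit of protein phosphatase 1, at a distance of 0.57, with H3K27me3 of 49.4 and 4.10 and H3K4me3 of 32.2 and 43.996 in −Dox and +Dox cells. It was followed by PRDM2 (0.99), RGMA (1.03), NECAB1 (1.05) and IL1RAP (1.09), with H3K27me3 ratios from 0.128 at IL1RAP to 0.170 at PRDM2 and H3K4me3 ratios from 0.972 at RGMA to 1.23 at NECAB1. Of the family, IGFBP6 was the nearest to IGFBP7, at a distance of 1.95 and rank 269 among all promoters. IGFBP5 followed at 2.51, IGFBP1 at 3.04 and IGFBP3 at 3.20. This likeness is computed from the values that chose IGFBP7 and is a description.

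The other genes of the pathway were taken from a list of 19 genes of insulin, receptors, adaptors, proteases, their inhibitors and RNA-binding proteins of the IGF2 transcript. Of these, 2 had bivalent promoters (9.42% of all promoters), and 2, INSR and IRS4, had an H3K27me3 ratio below 0.5 (21.5% of all promoters), which became 1 under either scaling and with a pseudocount of 1 or 5, and 0 of the 4 genes with a mean value of at least 10. The H3K27me3 interval lay below 1 at PAPPA and IRS4, 2 of the 19 (7.05% of all promoters), and above 1 at none (1.58%). PAPPA, the protease that releases IGFs from IGFBP4, was bivalent and had H3K27me3 of 60.5 and 31.3, a ratio of 0.518 (0.302 to 0.846), with H3K4me3 at 34.8 and 27.96. IRS4, an adaptor of the insulin and IGF receptors, was H3K4me3-only and had H3K27me3 of 17.1 in −Dox and 2.61 in +Dox cells, giving a ratio of 0.152 (0.0165 to 0.667). INSRR, an orphan relative of the insulin receptor, was bivalent and had H3K27me3 of 69.6 and 82.0, a ratio of 1.18 (0.811 to 1.72). The counting intervals of INSRR and IGFBP7 overlapped for H3K27me3 in −Dox cells and did not overlap in +Dox cells, a description only because IGFBP7 was chosen for its low ratio.

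For H3K4me3 the interval lay below 1 at 2 of the 19 genes (3.1% of all promoters) and above 1 at none. GRB14, an adaptor that inhibits the insulin receptor, had H3K4me3 of 61.3 and 26.1, a ratio of 0.426 (0.249 to 0.713). STC1, an inhibitor of PAPPA, had H3K4me3 of 37.05 and 20.5, a ratio of 0.554 (0.280 to 0.984), and its interval included 1 once both libraries had an equal total. IGF1R, the receptor of both ligands, had H3K4me3 of 204 in −Dox and 248 in +Dox cells, the highest value of the list in the latter, a ratio of 1.22 (0.9995 to 1.48), and its interval lay above 1 with that scaling. The median log2 ratio of the 19 genes was 0.35 for H3K27me3, at a median of 4.94 in −Dox cells, and −0.16 for H3K4me3.

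A second list held 13 genes of proteins that share the IGFBP domain without belonging to the family, such as the CCN matrix proteins and HTRA proteases. In this list 4 promoters were bivalent (9.42% of all promoters), and 5 of the 13 had an H3K27me3 ratio below 0.5, against 21.5% of all promoters. With both libraries at an equal total this count was 3, without CYR61 and CTGF, and it was also 3 with a pseudocount of 5. It was 4 with a pseudocount of 1, and 4 of the 5 genes with a mean value of at least 10. The H3K27me3 interval lay below 1 at 3 of the 13 (7.05% of all promoters) and above 1 at none (1.58%). NOV, a CCN matrix protein, had H3K27me3 of 31.6 and 5.22, a ratio of 0.165 (0.0397 to 0.455), and HTRA4, a secreted serine protease, had 62.8 and 21.998, a ratio of 0.351 (0.198 to 0.630). HTRA1, a related protease, had 33.5 and 12.7, a ratio of 0.379 (0.162 to 0.809). IGFBPL1, an IGFBP-like secreted protein, had H3K27me3 of 41.8 and 24.6, a ratio of 0.588 (0.324 to 1.07). All 4 bivalent promoters of this list had a lower H3K27me3 value in +Dox cells, as had 87.6% of bivalent promoters. The H3K4me3 interval included 1 at all 13.

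**Figure D5:**
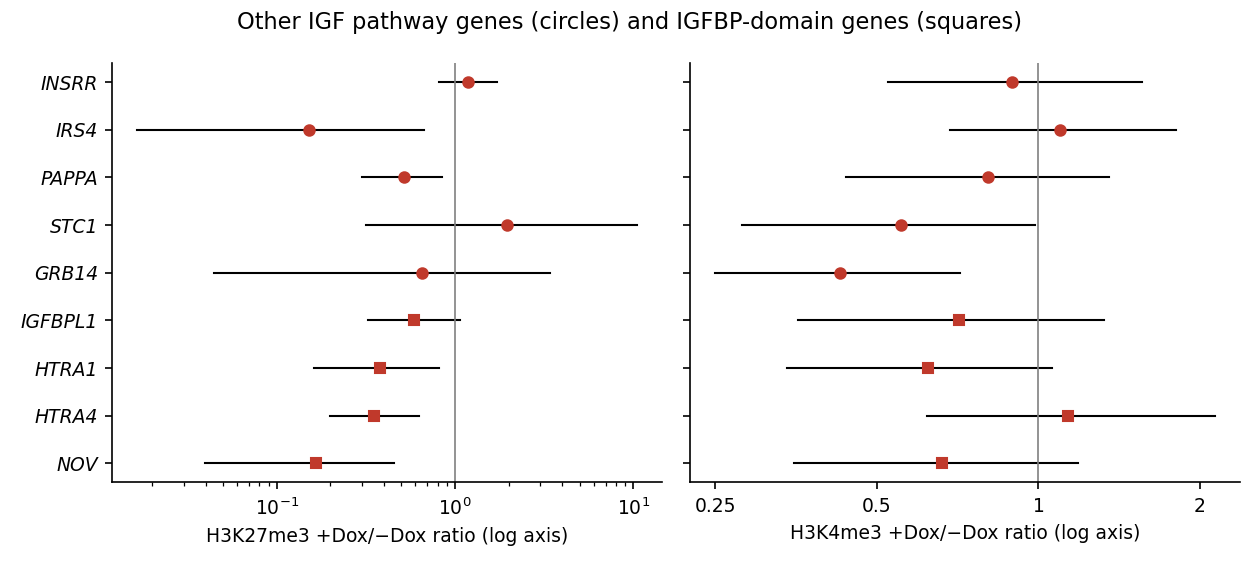
Ratio of +Dox to −Dox signal (log axes) for H3K27me3 (left) and H3K4me3 (right) with 95% counting intervals, for the listed pathway genes (circles) and IGFBP-domain genes (squares) with H3K27me3 above 20 in either condition or an interval that excluded 1. H3K27me3 intervals lie below 1 at IRS4, PAPPA, HTRA1, HTRA4 and NOV, and H3K4me3 intervals at STC1 and GRB14.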

How the data were processed

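Chromatin of JMJD3c-hESCs was immunoprecipitated for H3K27me3 and H3K4me3 with and without Dox, 1 library each. The authors ran a MiSeq for single-end reads of 150 bases, aligned them to hg19 with Bowtie2 (version not given in the sources used here), and discarded mitochondrial reads; the submitters' processing notes also name CASAVA 1.4. The deposited values are signal, ngs.plot coverage within 3 kb of the start of 1 transcript per Ensembl gene. Whether the profile scaling named in the methods was applied to them is not stated.

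In each file 100% of values were whole multiples of 1 step (tolerance 0.0001 of a step). The step and the spacing of histogram peaks, 3.33 or 3.34 steps, gave approximate reads, which enter the intervals only. Ratios are +Dox/−Dox without a pseudocount; promoters at 0 in −Dox cells have none. Intervals were tested on simulated reads with Poisson error and equal depth, which is the model they assume. Variation between libraries and the scaling totals were therefore not tested. Of the deposited transcripts, 18244 (90.1%) were found in GENCODE 44 mapped to GRCh37. Promoter sequences are from RefSeq (GRCh38.p14). The members and lists were chosen with earlier results of these data known. Named were the members, listed genes with H3K27me3 above 20 or an interval excluding 1, neighbours with H3K27me3 above 20 or an overlapping window, and the 5 promoters nearest to IGFBP7; SOAT2, SPRYD3, EIF4B, IGF1R, INSR, CYR61 and CTGF were added after their values were seen. Alternatives were 2 scalings (both libraries of a mark at an equal sum over promoters, or promoters with a mean value of at most 20 at a median ratio of 1), pseudocounts of 1 and 5, a minimum mean value of 10, and other class rules than the threshold of 20, which is that of the authors' methods. Python 3.11.15, numpy 2.4.6, pandas 2.3.3 and scipy 1.17.1 were used.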

Additional observations from a re-analysis of the deposited data

How the results depend on the processing

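No paired analysis was possible because the design holds 1 library per mark and condition, so leaving one out was not possible either. Of 95 recomputed values, 89 stayed within the 95% interval of the reported one or, for medians, within the range of the members and, for counts, within 1.5 times. These limits are wide, for the median log2 H3K27me3 ratio −4.01 to 1.51, so staying within them is a weak check. Among members, only the H3K27me3 ratios of IGFBP6 and IGFBP7 had intervals that excluded 1. Neither changed direction, but the alternatives used could not have moved them past 1. The H3K27me3 ratio of IGFBP7 lay between 0.0659 and 0.123 under the alternatives and that of IGFBP6 between 0.278 and 0.351. The number of genes with an H3K27me3 ratio below 0.5 was 7 over the 19 pathway and 13 IGFBP-domain genes (21.5% of all promoters). It became 4 with the libraries scaled to the same total, with a pseudocount of 5 and with a mean value of at least 10. In the last case fewer genes were tested, with 0 of 4 pathway genes and 4 of 5 IGFBP-domain genes below 0.5. At the same total the ratios of INSR, CYR61 and CTGF rose from 0.490, 0.446 and 0.464 to 0.577, 0.524 and 0.546. The cause of the fall with a pseudocount was not tested. Shares of all promoters under these alternatives were not computed. The number of members with an H3K4me3 ratio below 0.5 or above 2 was 2 and became 1 with a pseudocount of 5. The number of bivalent members was 3 and became 5 at a class threshold of 10, where IGFBP1 and IGFBP5 were added. It was 2 at a threshold of 30, where IGFBP7 was lost because its −Dox H3K4me3 was 29.4. With classes from the +Dox values it was 1. Scaling to the same total multiplies H3K27me3 ratios by 1.18 and moved the median log2 ratio of all promoters from −0.14 to 0.10 and that of the members from −0.47 to −0.24. When low promoters were set to a median ratio of 1, H3K4me3 ratios were multiplied by 0.944, and the H3K4me3 intervals of IGFBP2 (0.583 to 0.997), IGF2 (0.0488 to 0.9499), INSR and HTRA1 then lay below 1. Among the members, at most 10 reads in both libraries lie behind the H3K27me3 ratios of IGFBP4, IGF1 and IGF2 and the H3K4me3 ratio of IGF1, and behind the H3K27me3 values of IGFBP2.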
